A study of Homo sapiens with 12 samples.

Results

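The glial and neural crest genes ERBB3, NGFR, EDNRB, MBP, CDH19, GFRA1, L1CAM and NCAM1, which encode receptors, adhesion molecules and a myelin protein, were followed by their RNA in A375 cells that carried 1 of 3 mutant forms of YAP or an empty vector, beside the level of SOX10. The 8 genes were taken by name from the deposited table of 31585 distinct gene loci. A locus counted for a gene when its list of symbols held that gene, and where 2 loci did so, as for EDNRB, the locus with the higher mean over all 12 libraries was used. All 8 genes were found in the table, and 7 of them passed the filter on low values (3 or more libraries at 1 FPKM or above, FPKM being fragments per kilobase of transcript scaled to the fragments mapped in the library), as did 15055 loci in all.

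A375 is a human melanoma cell line. Each of the 4 groups was 1 stably transduced, hygromycin-selected line: Control cells carried the empty retroviral vector MSCV-IRES-Hygro, and the other lines carried that vector with YAP-S127A, with YAP-S127A,S94A or with YAP-2SA, and 3 cultures of each line were plated and sequenced. YAP is a transcriptional co-activator that the Hippo kinases hold back by phosphorylation; S127A removes a site that keeps YAP in the cytoplasm, S381A removes a site linked to its degradation, and S94A disrupts its binding to the TEAD transcription factors. YAP-2SA carries S127A and S381A in the sample titles. The study describes its second site by another residue number, and the condition field of the same samples and the text on the series' design list S94A as well. Since every group was 1 transduced population, the p-values rest on the spread between cultures within a line, estimated over all 4 lines together. They do not measure the spread between separate transductions.

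SOX10 is the transcription factor that maintains the Schwann cell and melanocyte lineages of the neural crest, and several of the genes described here are known as its targets in those cells. ERBB3 is the receptor through which neuregulins act on Schwann cells and their precursors, EDNRB is the endothelin receptor required by migrating melanoblasts and enteric neural crest cells, and NGFR is the low-affinity neurotrophin receptor widely used to mark neural crest and Schwann cells. GFRA1 is the co-receptor for GDNF. CDH19 is a cadherin of Schwann cell precursors, L1CAM and NCAM1 are adhesion molecules of the immunoglobulin superfamily found on neurons and non-myelinating glia, and MBP is a structural protein on the inner face of the myelin membrane.

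The 8 genes did not move as 1 set. In YAP-2SA cells, ERBB3, CDH19 and EDNRB fell, L1CAM, NCAM1 and GFRA1 rose, and NGFR did not pass the test. In YAP-S127A cells, L1CAM and NCAM1 rose and CDH19 fell by a margin that depended on single libraries, whereas ERBB3, EDNRB, GFRA1, NGFR and SOX10 did not pass. In YAP-S127A,S94A cells no member passed. MBP was close to 0 in every library.

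The genes lie on 7 chromosomes and share no neighbourhood. CDH19 and MBP are both on the long arm of chromosome 18, but far apart. On GRCh37 (the hg19 build of the files, with GENCODE release 44), ERBB3 spans chr12:56470583-56497289 on the plus strand, NGFR spans chr17:47572655-47592370 on the plus strand, and NCAM1 spans chr11:112831997-113149158 on the plus strand. EDNRB spans chr13:78469616-78549664, CDH19 spans chr18:64168320-64271375, MBP spans chr18:74690783-74845639, GFRA1 spans chr10:117816436-118036315 and L1CAM spans chrX:153126969-153151627, all on the minus strand. Antisense genes are annotated across NGFR (NGFR-AS1), L1CAM (L1CAM-AS1), NCAM1 (NCAM1-AS1) and EDNRB (OBI1-AS1), and POLR2F overlaps SOX10 on the opposite strand. The sources used here do not state whether reads were counted by strand, so these genes and their antisense partners cannot be told apart.

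Upstream sequence was available for 5 of the 8 members in the RefSeq promoter table (GRCh38.p14), namely CDH19, EDNRB, GFRA1, L1CAM and MBP. The 250 bases before each start were searched on both strands for the letters of a SOX motif (ACAAAG or ACAATG), a TEAD motif (GGAATG) and an AP-1 motif (TGACTCA or its complement TGAGTCA), which do not overlap one another in these windows. Among all 35116 promoters of the table, 21.2% held the SOX letters, 11.9% the TEAD letters and 4.2% the AP-1 letters. The windows below are those of a member that fell (CDH19), a member that rose from near 0 (GFRA1, its outermost start) and the member that rose to the highest level (L1CAM, the outer of 2 starts), all on the minus strand and read 5′ to 3′ toward the start, with matched letters in capitals.
CDH19, chr18:66604091-66604340: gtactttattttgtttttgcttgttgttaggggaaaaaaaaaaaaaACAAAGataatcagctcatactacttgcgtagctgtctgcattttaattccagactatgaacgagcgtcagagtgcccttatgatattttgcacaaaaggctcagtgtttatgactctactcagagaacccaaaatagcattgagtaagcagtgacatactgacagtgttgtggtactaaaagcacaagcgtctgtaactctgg
GFRA1, chr10:116274706-116274955: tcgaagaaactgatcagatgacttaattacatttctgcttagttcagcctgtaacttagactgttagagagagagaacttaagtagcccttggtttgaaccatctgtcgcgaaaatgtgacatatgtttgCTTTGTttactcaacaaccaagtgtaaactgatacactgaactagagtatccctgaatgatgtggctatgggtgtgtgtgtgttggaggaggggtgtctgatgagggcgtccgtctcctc
L1CAM, chrX:153876015-153876264: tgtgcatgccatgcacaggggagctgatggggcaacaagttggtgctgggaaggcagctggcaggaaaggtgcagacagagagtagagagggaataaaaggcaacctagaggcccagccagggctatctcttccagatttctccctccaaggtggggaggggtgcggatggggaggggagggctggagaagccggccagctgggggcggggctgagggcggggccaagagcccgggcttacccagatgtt
CDH19 held 1 SOX match, at position -204 counted from its start, and GFRA1 held 1 SOX match on the reverse strand, at -120 from its outermost start. L1CAM held no match at either of its 2 starts, and the other 3 starts of GFRA1 held none. MBP, near 0 in every library, held 2 SOX matches, at -228 and -192 from the second of its 2 starts. EDNRB held 1 TEAD match in reverse, at -77 from the second of its 2 starts, here with 12 bases on each side:
EDNRB, within chr13:77918832-77919081: tgggacccccatCATTCCctccctggcaca
With shares of this size among all promoters, these matches, and their absence, are a description of the windows only.

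Within each group the libraries correlated with Pearson's r of 0.9603 to 0.9751 across loci, and Control against YAP-2SA libraries gave 0.890 to 0.902. FPKM summed to between 790865 and 901558 per library; the number of reads behind each value is unknown. YAP1, the gene delivered by the vectors, stood at 34.1 and 33.0 FPKM in Control replicates 1 and 2 but at 172 FPKM in Control replicate 3, within the range of 130 to 187 FPKM in the 9 libraries with YAP constructs. The library labelled Control replicate 3 therefore goes against its label for YAP1, and every comparison with Control was also run without it. Of 9 melanocyte-lineage markers 4 passed the filter, and the sum over all 9 was 365 to 454 FPKM in Control, 270 to 348 FPKM in YAP-S127A and 43.1 to 52.2 FPKM in YAP-2SA, with SOX10, S100A1 and S100B making up most of it in Control. MITF went the other way, from a mean of 8.59 FPKM in Control to 35.0 FPKM in YAP-2SA, where it made up most of the sum, and TYRP1 had means of 0.0749 and 0.812 FPKM. TYR and DCT, which encode pigment enzymes, were under 0.1 FPKM on average in every group. Of 7 fibroblast markers 4 passed. The sum over all 7 was 45.8 to 48.2 FPKM in Control and 81.4 to 89.8 FPKM in YAP-2SA. PDGFRA, on a locus shared with FIP1L1 and LNX1, made up most of the Control sum. Its means were 42.5 FPKM in Control and 39.3 FPKM in YAP-2SA, a difference that did not pass. COL1A1 had means of 0.322 FPKM in Control, 7.27 FPKM in YAP-S127A and 33.4 FPKM in YAP-2SA. PDGFRB, on a locus shared with CSF1R and PDGF, had means of 2.61 FPKM in Control and 10.4 FPKM in YAP-2SA. LUM had means of 1.38 FPKM in Control and 2.30 FPKM in YAP-2SA. COL1A2 and COL3A1 were under 0.1 FPKM on average in all groups but YAP-2SA. DCN, which did not pass the filter, went the other way, with means of 0.461 FPKM in Control and 0.178 FPKM in YAP-2SA. Of 6 immune markers 1 passed, CD68, on a locus shared with MPDU1, while PTPRC and CD3E were under 0.1 FPKM. The immune sum was 74.8 to 85.9 FPKM in Control and 107 to 117 FPKM in YAP-2SA. The shared locus made up most of it, at means of 80.2 FPKM in Control and 111 FPKM in YAP-2SA. CD68 and MPDU1 cannot be told apart there. None of 5 endothelial markers passed, and they summed to at most 1.52 FPKM. The 8 keratinocyte markers, of which 3 passed, ranged in sum from 23.6 to 37.3 FPKM, with EPCAM, CDH1 and TP63 under 0.1 FPKM. KRT10 made up most of that sum, at means of 25.2 FPKM in Control and 24.8 FPKM in YAP-2SA. KRT14 fell from 6.87 FPKM in Control to 0.434 FPKM in YAP-2SA, and KRT5 rose from 0.0282 to 1.56 FPKM. The part of other cells in the results below was not tested, and in bulk RNA fewer cells of a type and less RNA per cell cannot be told apart.

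**Figure D1:**
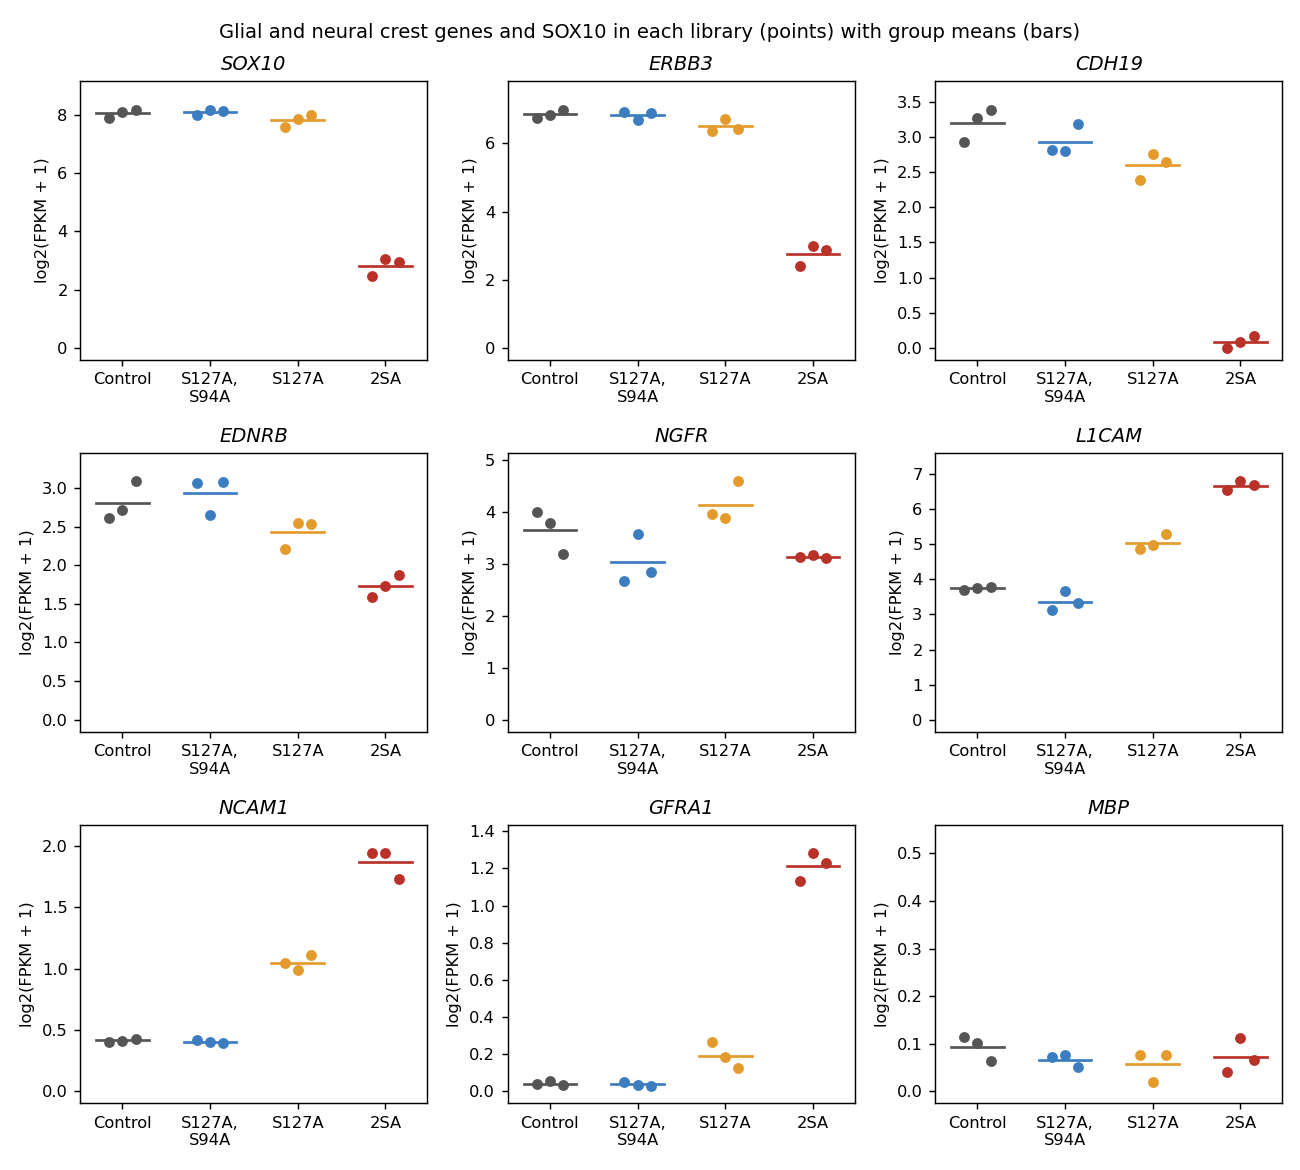
Level of SOX10 and of the 8 genes, as log2(FPKM + 1) on the vertical axis, in each of the 12 libraries (points, replicates 1 to 3 from left to right) with group means (bars) for Control, YAP-S127A,S94A, YAP-S127A and YAP-2SA. The vertical scale differs between panels. SOX10, ERBB3 and CDH19 were low in the 3 YAP-2SA libraries alone, L1CAM and NCAM1 were intermediate in YAP-S127A, and MBP stayed under 0.12 in all libraries.

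ERBB3 was the most abundant member in Control cells and fell in YAP-2SA. It stood at 105, 114 and 126 FPKM in the Control libraries and at 120, 102 and 117 FPKM in those of YAP-S127A,S94A. The YAP-S127A libraries gave 81.6, 103 and 85.6 FPKM, and the YAP-2SA libraries gave 4.29, 6.99 and 6.38 FPKM. The YAP-2SA libraries lay far below the other 9, and the YAP-S127A libraries lay below all Control libraries but overlapped those of YAP-S127A,S94A. In mean FPKM ERBB3 was 19.6-fold lower in YAP-2SA than in Control, with a log2 fold change of -4.095 on the log2(FPKM + 1) scale used for all fold changes here (SE 0.149, limma adjusted p = 6.3e-09, n = 3 per group). The difference between YAP-S127A and Control was -0.36 (95% confidence interval -0.69 to -0.02, adjusted p = 0.222), and that between YAP-S127A,S94A and Control was -0.03 (interval -0.36 to 0.31, adjusted p = 1). By its mean level ERBB3 stood above 94% of the tested loci in Control and above 39.2% of them in YAP-2SA.

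For SOX10 the levels were 234, 274 and 281 FPKM in Control, 250, 287 and 278 FPKM in YAP-S127A,S94A, and 188, 230 and 255 FPKM in YAP-S127A. In YAP-2SA they were 4.53, 7.25 and 6.69 FPKM. SOX10 was thus 42.7-fold lower in YAP-2SA than in Control by mean FPKM (log2 fold change -5.22, SE 0.155, limma adjusted p = 1.48e-09), with no overlap between YAP-2SA and any other group. The YAP-S127A libraries overlapped both Control and YAP-S127A,S94A, with a log2 fold change of -0.24 against Control (interval -0.58 to 0.11, adjusted p = 0.456).

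CDH19 went from a moderate level to the edge of detection. The Control libraries held 6.61, 8.69 and 9.48 FPKM, those of YAP-S127A,S94A 6.008, 5.998 and 8.107 FPKM, and those of YAP-S127A 4.25, 5.74 and 5.23 FPKM. In YAP-2SA CDH19 was listed at 0 in replicate 1 and at 0.0570 and 0.123 FPKM in replicates 2 and 3. The log2 fold change against Control was -3.12 (SE 0.148, limma adjusted p = 4.48e-08). The ratio of mean FPKM was 138-fold, but its denominator is so near 0, at an unknown read depth, that its size is uncertain. Each YAP-S127A library was also below each Control library and each YAP-S127A,S94A library. Against Control the mean ratio was 1.63-fold lower and the log2 fold change was -0.60 (SE 0.148, adjusted p = 0.0382), which is past the threshold. This call was lost without 9 of the 12 libraries, one at a time: Control replicates 2 and 3 and YAP-S127A replicates 1 and 3 (adjusted p from 0.0847 to 0.13), and also YAP-S127A,S94A replicates 1 and 2 and each YAP-2SA replicate, which enter only through the shared estimate of the spread (0.0505 to 0.0577).

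EDNRB fell less. Its levels were 5.12, 5.57 and 7.49 FPKM in Control, 7.39, 5.30 and 7.46 FPKM in YAP-S127A,S94A and 3.61, 4.83 and 4.81 FPKM in YAP-S127A. YAP-2SA gave 2.01, 2.31 and 2.67 FPKM. The 4 groups followed the order YAP-S127A,S94A, Control, YAP-S127A, YAP-2SA, and the first and second of these overlapped while the other neighbours did not. EDNRB was 2.60-fold lower in YAP-2SA than in Control (log2 fold change -1.08, SE 0.161, limma adjusted p = 3.12e-04). For YAP-S127A against Control the log2 fold change was -0.38 (interval -0.73 to -0.02, adjusted p = 0.229). A second locus of the table also carries the EDNRB symbol at a lower level, 2.10 to 2.53 FPKM in Control and 1.18 to 2.19 FPKM in YAP-2SA, and there the difference did not pass (log2 fold change -0.30, adjusted p = 0.151).

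NGFR was the member whose group means differed least in YAP-2SA among those past the filter. Its levels were 14.96, 12.8 and 8.13 FPKM in Control and 5.38, 10.9 and 6.18 FPKM in YAP-S127A,S94A. The YAP-S127A libraries gave 14.6, 13.8 and 23.1 FPKM, and the YAP-2SA libraries 7.79, 7.99 and 7.72 FPKM. The spread within Control, YAP-S127A and YAP-S127A,S94A was wide, whereas the 3 YAP-2SA libraries lay close together. They were just below the lowest Control library, which was replicate 3, the library that goes against its label for YAP1. Against Control the log2 fold changes were -0.52 for YAP-2SA (interval -1.12 to 0.09, limma adjusted p = 0.157), 0.49 for YAP-S127A (interval -0.12 to 1.09, adjusted p = 0.371) and -0.63 for YAP-S127A,S94A (unadjusted p = 0.0436, adjusted p = 1). Without Control replicate 3 the YAP-2SA value was -0.748, the largest fall with any 1 library left out. No such fit passed for YAP-2SA (lowest limma adjusted p = 0.056).

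L1CAM rose in steps. The Control libraries stood at 11.99, 12.6 and 12.8 FPKM and those of YAP-S127A,S94A at 7.77, 11.6 and 8.96 FPKM. YAP-S127A libraries stood at 27.9, 30.8 and 38.0 FPKM and YAP-2SA libraries at 92.4, 110 and 101 FPKM. No group overlapped another. L1CAM was 8.13-fold higher in YAP-2SA than in Control (log2 fold change 2.92, SE 0.138, limma adjusted p = 4.22e-08) and 2.59-fold higher in YAP-S127A (1.30, SE 0.138, adjusted p = 2.66e-04). All 3 YAP-S127A,S94A libraries were below the lowest Control library, but the log2 fold change of -0.38 did not pass (unadjusted p = 0.0199, adjusted p = 0.968). In mean level L1CAM stood above 57.1% of tested loci in Control and above 92.4% in YAP-2SA, where it was the most abundant of the 8 members.

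NCAM1, the relative of L1CAM that polysialic acid modifies on migrating neural cells, rose in the same order from a low base. It gave 0.326, 0.331 and 0.346 FPKM in Control and 0.336, 0.325 and 0.316 FPKM in YAP-S127A,S94A. In YAP-S127A it gave 1.07, 0.992 and 1.16 FPKM, and in YAP-2SA 2.84, 2.84 and 2.32 FPKM. Control and YAP-S127A,S94A overlapped and the other groups did not. The ratio to Control was 7.98 for YAP-2SA (log2 fold change 1.46, SE 0.084, limma adjusted p = 1.98e-07) and 3.21 for YAP-S127A (0.63, SE 0.084, adjusted p = 0.00107). Since 1 is added to the FPKM before the log, the log2 values understate such ratios for low genes.

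GFRA1 was near 0 outside YAP-2SA. Its levels were 0.0274, 0.0381 and 0.0253 FPKM in Control, 0.0367, 0.0260 and 0.0196 FPKM in YAP-S127A,S94A, and 0.201, 0.137 and 0.0920 FPKM in YAP-S127A. YAP-2SA gave 1.19, 1.43 and 1.35 FPKM. The log2 fold change of YAP-2SA against Control was 1.17 (SE 0.085, limma adjusted p = 1.23e-06), and the ratio of mean FPKM, 43.7-fold, rests on a Control level close to 0. Each YAP-S127A library was above each Control library, at a mean ratio of 4.73, but on the log2(FPKM + 1) scale the difference was 0.15 (interval -0.04 to 0.34, adjusted p = 0.382). Both GFRA1 and NCAM1 entered the test only through the groups in which they were high. With no filter, both were also called in YAP-2SA against Control (limma adjusted p = 2.74e-08 for GFRA1 and 9.72e-08 for NCAM1).

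MBP ranged from 0.0133 to 0.0822 FPKM over the 12 libraries, its locus also lists AK094611, and it did not pass the filter. Group means ran from 0.0407 FPKM in YAP-S127A to 0.0669 FPKM in Control and all groups overlapped.

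**Figure D2:**
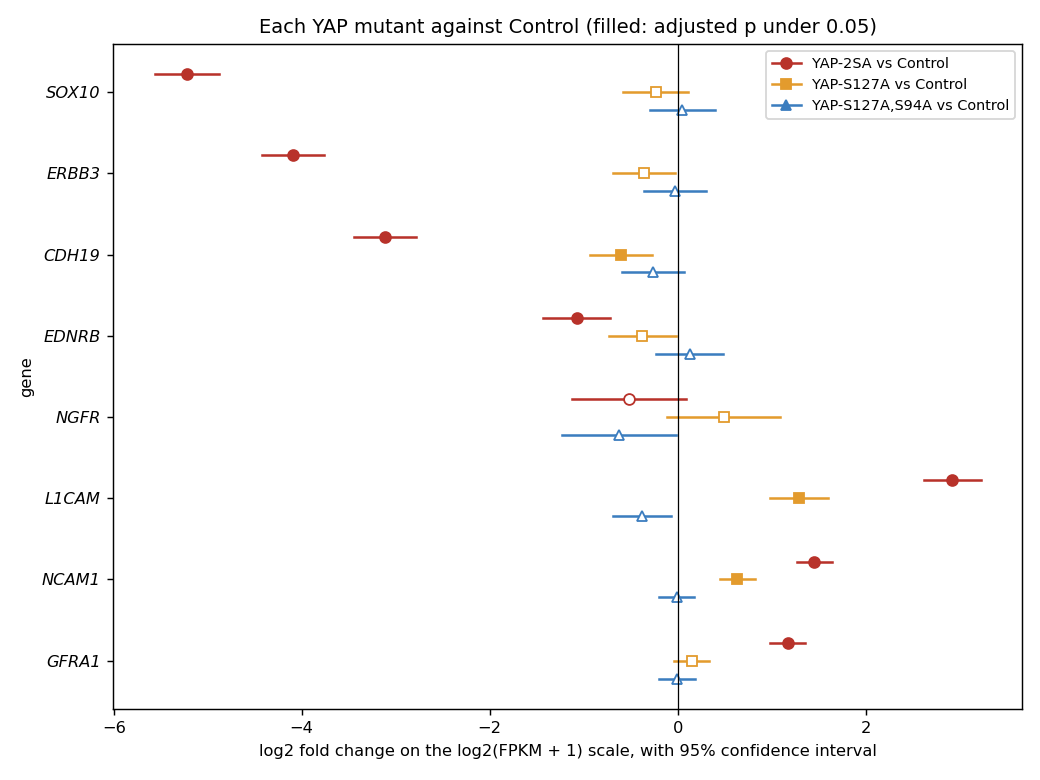
Log2 fold change against Control on the log2(FPKM + 1) scale (horizontal axis) with 95% confidence intervals from limma for SOX10 and the 7 members tested, for YAP-2SA (red circles), YAP-S127A (orange squares) and YAP-S127A,S94A (blue triangles). Filled symbols passed an adjusted p of 0.05. YAP-2SA values run from -5.22 for SOX10 to 2.92 for L1CAM, and no YAP-S127A,S94A symbol is filled.

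Counted together, 3 of the 7 tested members rose and 3 fell in YAP-2SA against Control, where 22.9% of all tested loci rose and 19.5% fell at the same threshold. Of those that rose, GFRA1 and NCAM1 entered the test only through groups in which they were high, here and in the comparisons below. Their direction against Control was therefore tied to the filter. All 6 also differed over 2-fold in mean FPKM, as did 15.5% of all tested loci. The median log2 fold change was -0.52 over the members and 0.01 over all loci. In YAP-S127A against Control 2 members rose and 1 fell, beside 4.56% and 1.75% of all loci, and L1CAM and NCAM1 were over 2-fold, beside 2.47% of loci. In YAP-S127A,S94A against Control, limma called none of the 7 members, with 2 at an unadjusted p under 0.05 (NGFR and L1CAM), and 0.179% of all loci were called. The share of all loci at an unadjusted p under 0.05 was not counted, here or for the unadjusted counts below. These 3 comparisons share the Control libraries. Without Control replicate 3 the counts of called members were 6, 2 and 0, with CDH19 in YAP-S127A lost (log2 fold change -0.51, adjusted p = 0.13).

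YAP-2SA was also compared with YAP-S127A directly, with no Control library in the contrast. All 7 tested members differed between YAP-2SA and YAP-S127A, 3 higher and 4 lower, beside 18.3% and 14.5% of all loci. ERBB3 was 15.3-fold lower in YAP-2SA (log2 fold change -3.74, SE 0.149, limma adjusted p = 3.14e-08), CDH19 lower by 2.51 on the log2 scale (adjusted p = 5.06e-07) and EDNRB 1.90-fold lower (-0.70, adjusted p = 0.00719). NGFR, which passed against Control in neither mutant, was 2.19-fold lower in YAP-2SA than in YAP-S127A (-1.003, SE 0.272, adjusted p = 0.0166), a call lost without YAP-S127A replicate 3 (-0.78, adjusted p = 0.0598). L1CAM was 3.14-fold higher (1.63, adjusted p = 7.55e-06), NCAM1 2.49-fold higher (0.82, adjusted p = 2.95e-05) and GFRA1 9.23-fold higher (1.02, adjusted p = 6.49e-06). SOX10 was 36.4-fold lower (-4.99, adjusted p = 5.98e-09).

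YAP-S127A against YAP-S127A,S94A asks what the intact TEAD contact adds to S127A. L1CAM was 3.41-fold higher with it (log2 fold change 1.68, SE 0.138, limma adjusted p = 3.41e-05), NCAM1 3.29-fold higher (0.64, adjusted p = 7.69e-04) and NGFR 2.29-fold higher (1.115, SE 0.272, adjusted p = 0.0265). Thus 3 members were higher and none lower, beside 6.36% and 4.31% of all loci at the same adjusted threshold. At an unadjusted p under 0.05 there were 5 of 7, a count with no share of all loci to set beside it. The NGFR call was lost without YAP-S127A replicate 3 (0.89, adjusted p = 0.0876) and without YAP-S127A,S94A replicates 1 (0.94, 0.0983) or 3 (1.02, 0.0992). EDNRB gave -0.51 (interval -0.86 to -0.15, adjusted p = 0.0749), and its call was gained without YAP-S127A,S94A replicate 2 (-0.65, adjusted p = 0.0384). ERBB3 gave -0.33 (adjusted p = 0.206), CDH19 -0.34 (adjusted p = 0.187), GFRA1 0.15 (adjusted p = 0.303) and SOX10 -0.29 (adjusted p = 0.293).

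YAP-2SA against YAP-S127A,S94A gave 3 members higher and 3 lower, beside 23.2% and 20.3% of all loci. The log2 fold changes were -4.07 for ERBB3, -2.85 for CDH19, -1.20 for EDNRB, 3.30 for L1CAM, 1.47 for NCAM1 and 1.18 for GFRA1, with limma adjusted p-values between 6.12e-09 (ERBB3) and 1.3e-04 (EDNRB). NGFR gave 0.11 (interval -0.49 to 0.72, adjusted p = 0.775).

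**Figure D3:**
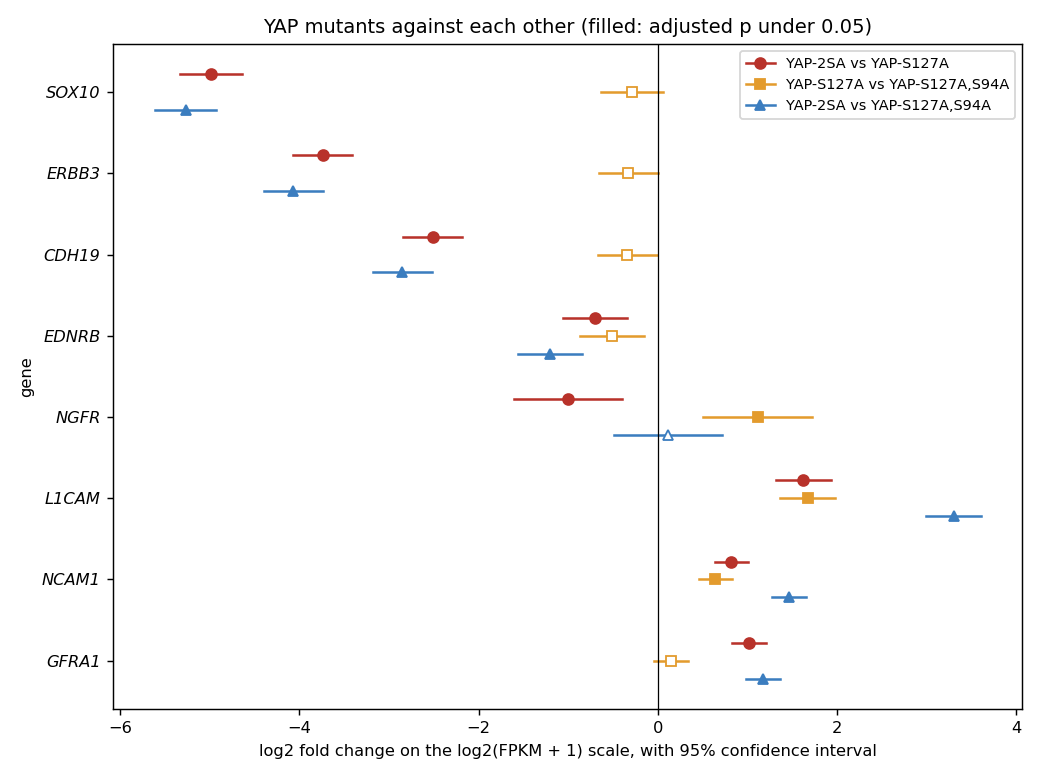
Log2 fold change between YAP mutants on the log2(FPKM + 1) scale (horizontal axis) with 95% confidence intervals from limma, for YAP-2SA against YAP-S127A (red circles), YAP-S127A against YAP-S127A,S94A (orange squares) and YAP-2SA against YAP-S127A,S94A (blue triangles). Filled symbols passed an adjusted p of 0.05. All 7 members and SOX10 are filled for YAP-2SA against YAP-S127A, and NGFR, L1CAM and NCAM1 are filled for YAP-S127A against YAP-S127A,S94A.

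The partners of these receptors were examined as a list of 28 ligands, co-receptors and processing enzymes, of which 13 passed the filter. In YAP-2SA against Control 7 rose and 4 fell, beside 22.9% and 19.5% of all tested loci, with a median log2 fold change of 0.62. NRG1, which encodes a neuregulin that ERBB3 binds, rose most, with 29.9 FPKM in YAP-2SA against 0.8365 FPKM in Control (log2 fold change 4.08, limma adjusted p = 4.22e-10). EGFR, a relative of ERBB3 whose locus also lists GU228584, rose by 2.97 (adjusted p = 3.68e-07). Among neurotrophins, which bind NGFR, BDNF rose by 2.38 (adjusted p = 3.59e-08). NRG1 and BDNF reached 1 FPKM only in YAP-S127A and YAP-2SA libraries, and so entered the test only through groups in which they were high. The ligands GDNF, which binds GFRA1, and NRTN, of the same family, fell. GDNF held a mean of 0.111 FPKM in YAP-2SA against 1.83 FPKM in Control (-1.34 on the log2 scale, adjusted p = 2.31e-06), and NRTN held 0.313 against 2.09 FPKM (-1.24, adjusted p = 2.03e-05). In YAP-S127A 4 of the 13 rose and none fell, beside 4.56% and 1.75% of all loci, including NRG1 (2.09, adjusted p = 8.52e-07), EGFR (1.395, adjusted p = 0.00108) and BDNF (1.04, adjusted p = 2.66e-04), and none was called in YAP-S127A,S94A, with 1 at an unadjusted p under 0.05.

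Adhesion relatives of CDH19, L1CAM and NCAM1 split as well. Of 17 listed genes 10 passed the filter, and in YAP-2SA 4 rose and 5 fell, again beside 22.9% and 19.5% of all loci, with a median log2 fold change of -0.26. The cadherin CDH6 rose by 3.07 (limma adjusted p = 9.26e-10), NFASC, an L1-family gene, by 2.07 (adjusted p = 1.03e-07) and CDH11, on a locus shared with AK021537, by 1.65 (adjusted p = 1.19e-06). CDH6 and CDH11 reached 1 FPKM only in YAP-S127A and YAP-2SA libraries, and so entered the test only through groups in which they were high. NRCAM, another L1-family gene, fell by 2.55 (adjusted p = 3.62e-08). In YAP-S127A CDH6, NFASC and CDH11 rose and none fell (4.56% and 1.75% of all loci), and none was called in YAP-S127A,S94A, with 1 at an unadjusted p under 0.05.

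Schwann cell and myelin genes were mostly lower in YAP-2SA. Of 18 listed genes 11 passed the filter, 8 fell and 2 rose, where 19.5% of all loci fell and 22.9% rose, with a median log2 fold change of -2.11. S100B, a calcium-binding glial marker, fell by 4.73 on the log2 scale (limma adjusted p = 1.14e-09). The log2 fold change was -3.72 for GJB1, a gap junction protein of myelin (adjusted p = 3.08e-08), and -2.965 for MIA, on a locus shared with EGLN2, MIA-RAB4B and RAB4B (adjusted p = 1.09e-09). CD9 and MAG, the latter on a locus shared with CD22, rose. In YAP-S127A 4 of the 11 fell, beside 1.75% of all loci, none over 2-fold, and the count went to 0 without Control replicate 2 or YAP-S127A replicate 1, to 1 without Control replicate 3 and to 2 without YAP-S127A replicate 3. None was called in YAP-S127A,S94A, with 1 at an unadjusted p under 0.05.

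All 13 transcription factors of the neural crest list passed the filter. In YAP-2SA 6 rose and 5 fell, beside 22.9% and 19.5% of all loci, with a median log2 fold change of 0.11. TFAP2B fell by 4.74 (limma adjusted p = 7.35e-09) and SOX5, a partner of SOX10, by 3.82 (adjusted p = 5.43e-08), whereas SOX9, which belongs to the same SOX subgroup as SOX10, rose by 2.94 (adjusted p = 6.63e-08) and MITF, the master regulator of melanocytes, by 1.96 (adjusted p = 1.26e-04). SOX9 reached 1 FPKM only in YAP-S127A and YAP-2SA libraries, and so entered the test only through groups in which it was high. In YAP-S127A SOX9, ETS1 and TFAP2A rose and none fell (4.56% and 1.75% of all loci). None was called in YAP-S127A,S94A, with 0 at an unadjusted p under 0.05.

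**Figure D4:**
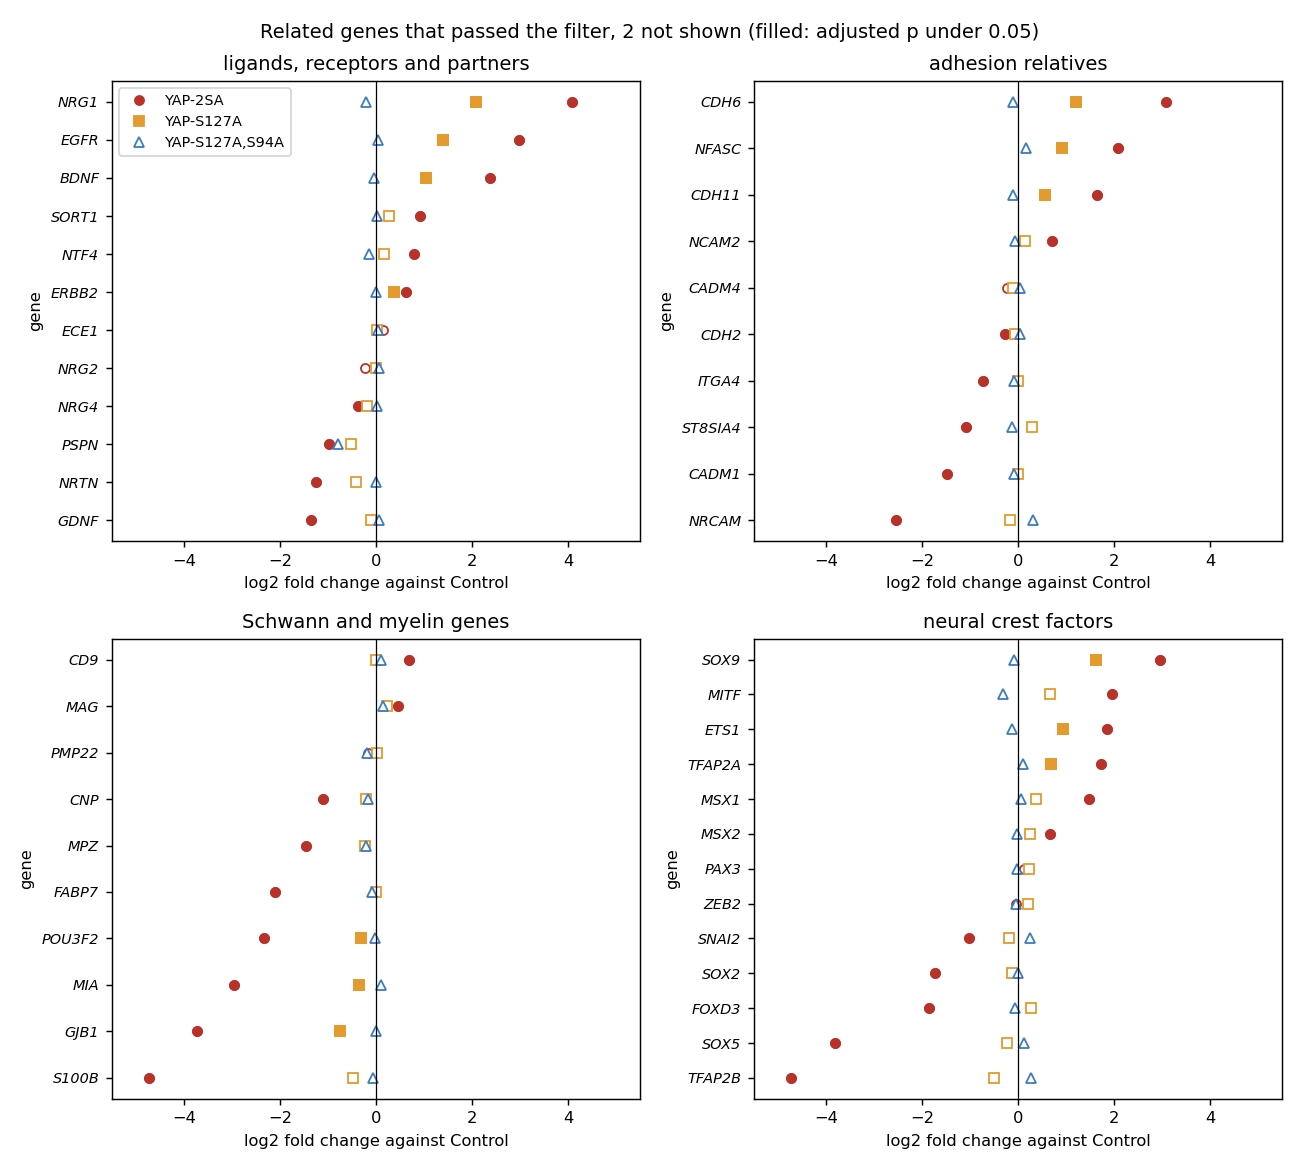
Log2 fold change against Control on the log2(FPKM + 1) scale (horizontal axis) for the genes of 4 lists that passed the filter, apart from 2 not shown, in YAP-2SA (red circles), YAP-S127A (orange squares) and YAP-S127A,S94A (blue triangles), with filled symbols for an adjusted p under 0.05. The Schwann and myelin panel has 7 filled red circles left of 0, the other panels have filled red circles on both sides, and no blue triangle is filled.

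The loci most like each member were found by the root mean square difference between log2(FPKM + 1) profiles over the 12 libraries, each centred on its own mean, among loci with 1 symbol. Closest to SOX10 were HLA-DRA (0.23), SDC3 (0.25) and TNC (0.28), and ERBB3 followed after 14 such loci (0.53) and CDH19 after 68 (1.03). Closest to ERBB3 were DQ599803 (0.12) and SOX5 (0.14). Closest to CDH19 were DNAH9 (0.17), FGF13 (0.17) and GNG2 (0.17), and closest to EDNRB were APOD (0.09), RAB17 (0.11) and HBP1 (0.11). L1CAM was nearest to FOSL2 (0.16), ARHGAP29 (0.17) and KRT80 (0.19), NCAM1 to AX747104 (0.07), NAV2 (0.07) and an assembled locus without a gene name, and GFRA1 to MYL12A (0.08), LIMA1 (0.08) and KLHDC7A (0.09). On this scale a low gene can lie close to abundant loci whose ratio differs. MYL12A had means of 98.9 FPKM in Control and 200 FPKM in YAP-2SA, where GFRA1 had 0.0303 and 1.32 FPKM. The profiles share libraries and groups, and likeness is a description here.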

How the data were processed

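RNA from 12 cultures of A375 cells (4 lines, 3 cultures each) was sequenced. Per the labels and the study's methods, the authors used bcl2fastq 2.15.0, Bowtie2 2.0.0, TopHat2 2.0.4 and Cufflinks 2.0.2 with hg19 and deposited 1 table of log2(FPKM + 1) values per locus and library. Read depth and the handling of multiply aligned reads are not given in the sources used here, and the records differ on how long cells were cultured before lysis. Of 31588 entries, 3 identical ones were removed, and 2179 loci list several symbols.

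FPKM was computed back from the log2 values. limma 3.58.1 (R 4.3.3) with an intensity trend was fitted to the deposited log2 values of all 12 libraries with 1 mean per group, for loci that reached 1 FPKM in 3 or more libraries, and p-values were adjusted by Benjamini-Hochberg over the 15055 loci. An adjusted p under 0.05 was called. A permutation test of 3 against 3 could not go below 0.1. The fit was tested on simulated data. Genes were named by rule: the 8 members, SOX10, YAP1, up to 4 called genes per list with the largest change in YAP-2SA, and 3 nearest profiles, except 3 genes not reported here by name. Other genes, including those behind small counts, were named after their values were seen. The members and lists were chosen with earlier results of these data known. Alternatives covered the pseudocount (0.1, 0.01), filter (0.1, 5, none), scaling, fitted libraries, replicate block, variance trend, call rule and each library left out.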

Additional observations from a re-analysis of the deposited data

How the results depend on the processing

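Over 1122 recomputed fold changes of the 7 tested members and SOX10, 1091 kept their direction and their side of the threshold, 23 lost and 2 gained a call, and 6 turned direction. Many of these fold changes could not move. The filters, call rules, fitted libraries, replicate block and variance trend leave the difference of group means as it is. Leaving out a library outside the comparison does so too. In those settings direction was fixed in advance, and only the call could change. All 6 were uncalled values close to 0: for YAP-S127A,S94A against Control, leaving out 1 library gave -0.089 to 0.043 for ERBB3, -0.011 to 0.002 for GFRA1 and -0.033 to 0.108 for SOX10, and NGFR in YAP-2SA against YAP-S127A,S94A gave -0.067 to 0.384. Counts of called members stayed within 1.5 times: 4 to 6 in YAP-2SA against Control, with 4 at an FPKM minimum of 5, 2 or 3 in YAP-S127A against Control, 0 in YAP-S127A,S94A against Control, 5 to 7 in YAP-2SA against YAP-S127A and 2 to 4 in YAP-S127A against YAP-S127A,S94A. At the FPKM minimum of 5, NCAM1 and GFRA1 were no longer tested, so fewer members could be called. CDH19 in YAP-S127A lost its call at a pseudocount of 0.1 (adjusted p = 0.195) or 0.01 (0.672), without a filter (0.0667) and with only the libraries compared (0.127). NGFR in YAP-S127A against YAP-S127A,S94A lost its call with only the libraries compared (0.0815). GFRA1 leaves the tested set without any 1 of the YAP-2SA libraries.

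The replicate numbers did not pair the samples (correlation of same-numbered deviations -0.149 to 0.163), and the replicate block left member counts at 6, 3, 0, 7 and 6 and raised YAP-S127A against YAP-S127A,S94A from 3 to 4 through EDNRB (-0.51, adjusted p = 0.043). Of 576 list counts, 22 moved by over 1.5 times, among them the receptor partners in YAP-2SA against Control, from 11 to 5 at a minimum of 5, and the Schwann and myelin genes in YAP-S127A against Control, from 4 to 0 with only the libraries compared. At the minimum of 5, partners such as GDNF and NRTN were no longer tested, so fewer of them could be called. Over all loci, YAP-S127A against Control went from 950 to 447 calls with only the libraries compared, YAP-S127A against YAP-S127A,S94A from 1607 to 955 without YAP-S127A,S94A replicate 3, and YAP-S127A,S94A against Control from 27 to 8 at a pseudocount of 0.01. The causes were not tested. Without Control replicate 3, YAP1 was higher in YAP-2SA (2.01, adjusted p = 1.26e-07), YAP-S127A (2.29, adjusted p = 1.75e-06) and YAP-S127A,S94A (2.16, adjusted p = 6.22e-06) than in Control.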
